A study of Mus musculus with 12 samples.

Results

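The nuclear genes for subunits of oxidative phosphorylation were described in mouse oocytes with and without Mtr4. The genes were chosen by symbol alone: Nduf genes of the a, b, c, s and v series, Cox4 to Cox8 genes, Atp5 genes, Uqcr genes, Sdha to Sdhd and Cyc1. The rule found 85 of the 23235 gene symbols in the deposited table. They comprised 35 genes of complex I, 4 of complex II, 9 of complex III, 18 of complex IV and 15 of complex V. The remaining 4 (Cox4nb, Cox7a2l, Atp5s and Atp5sl) match the symbols without being structural subunits. They were left out of the complexes but are counted in the results for the subunit genes as a whole. Ndufa4, long named for complex I, was counted with complex IV, where its protein is found.

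The study compared oocytes labelled WT with oocytes labelled MTR4-null, taken from ovaries of female mice on day 14 (labelled growing GV) and day 21 (labelled GV; GV is the germinal vesicle stage, before meiosis resumes). The labels list 12 libraries, 3 per genotype and age, and 10 oocytes per sample, while the design text speaks of duplicates. Oocytes were lysed directly and poly(A) RNA was turned into libraries by Smart-seq2, which does not mark strand. The deposited table gives FPKM (fragments scaled to transcript length and to the mapped fragments of the library) as the authors' mean for each of the 4 groups, so no replicate error and no test was available, and the depth is unknown. The deleted exons, any Cre driver and whether the libraries of each group are different animals are not given in the sources used here.

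Complexes I to IV form the respiratory chain of the inner mitochondrial membrane. Complexes I and II pass electrons from NADH and succinate to coenzyme Q, complex III passes them to cytochrome c, complex IV passes them to oxygen, and complex V (ATP synthase) uses the resulting proton gradient to make ATP. Oocytes take up pyruvate from the surrounding follicle cells and depend on mitochondrial ATP for growth and maturation. MTR4 is the RNA helicase that feeds nuclear transcripts to the RNA exosome. Its gene is listed under the older symbol Skiv2l2.

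Skiv2l2 stood at 27.6 FPKM in WT and 1.57 in Mtr4-null oocytes on day 14, 17.6-fold lower, and at 26.3 and 3.86 on day 21, 6.80-fold lower. The 10 oocyte markers summed to 26101 (WT) and 26282 (null) FPKM on day 14 and to 19805 and 14826 on day 21. The 9 granulosa markers summed to between 21.3 and 35.8 FPKM in the 4 groups, the 8 theca and stroma markers to between 1.04 and 1.62, and the 7 blood markers to between 1.41 and 2.27, with 4 of them (the haemoglobin genes and Emr1) at 0 in every group. The 4 endothelial markers summed to 16.8, 13.2, 24.4 and 2.75 FPKM (WT and null on day 14, WT and null on day 21). Nearly all of that came from Pecam1 and Tek, with Cdh5 at or near 0. Within the granulosa list Cyp19a1 stood at 10.5, 4.30, 25.3 and 1.48 FPKM and Inha at 2.68, 4.22, 1.72 and 10.9 in the same order. The part of these cells in the differences below was not tested, and fewer cells of a type and less RNA per cell cannot be told apart in such pools. In the Mtr4-null day 21 column only 0.12% of values above 0 end in repeating decimals, as most means of 3 do, against 55.4% to 57.4% in the other columns. That column may be a mean of 2 libraries.

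Subunit transcripts were among the abundant messages of the oocyte. The median subunit gene stood at the percentile 94.1 of genes in WT on day 14 and at 93.3 in Mtr4-null on day 21, among the 11913 genes with a mean of at least 1 FPKM over the 4 groups. Of the 85 subunit genes, 83 passed that minimum. The exceptions were Cox7b2, listed at 0 except in Mtr4-null day 21 (0.36 FPKM), and Cox8b, listed at 0 in all 4 groups. Levels of the 83 spanned 2.39 (Cox7a1) to 718 FPKM (Atp5e) in WT on day 14. Their sum was 17855 FPKM in WT and 15179 in Mtr4-null on day 14, and 18140 and 14755 on day 21, which was 2.98%, 2.55%, 3.005% and 2.27% of all FPKM in the table.

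**Figure D1:**
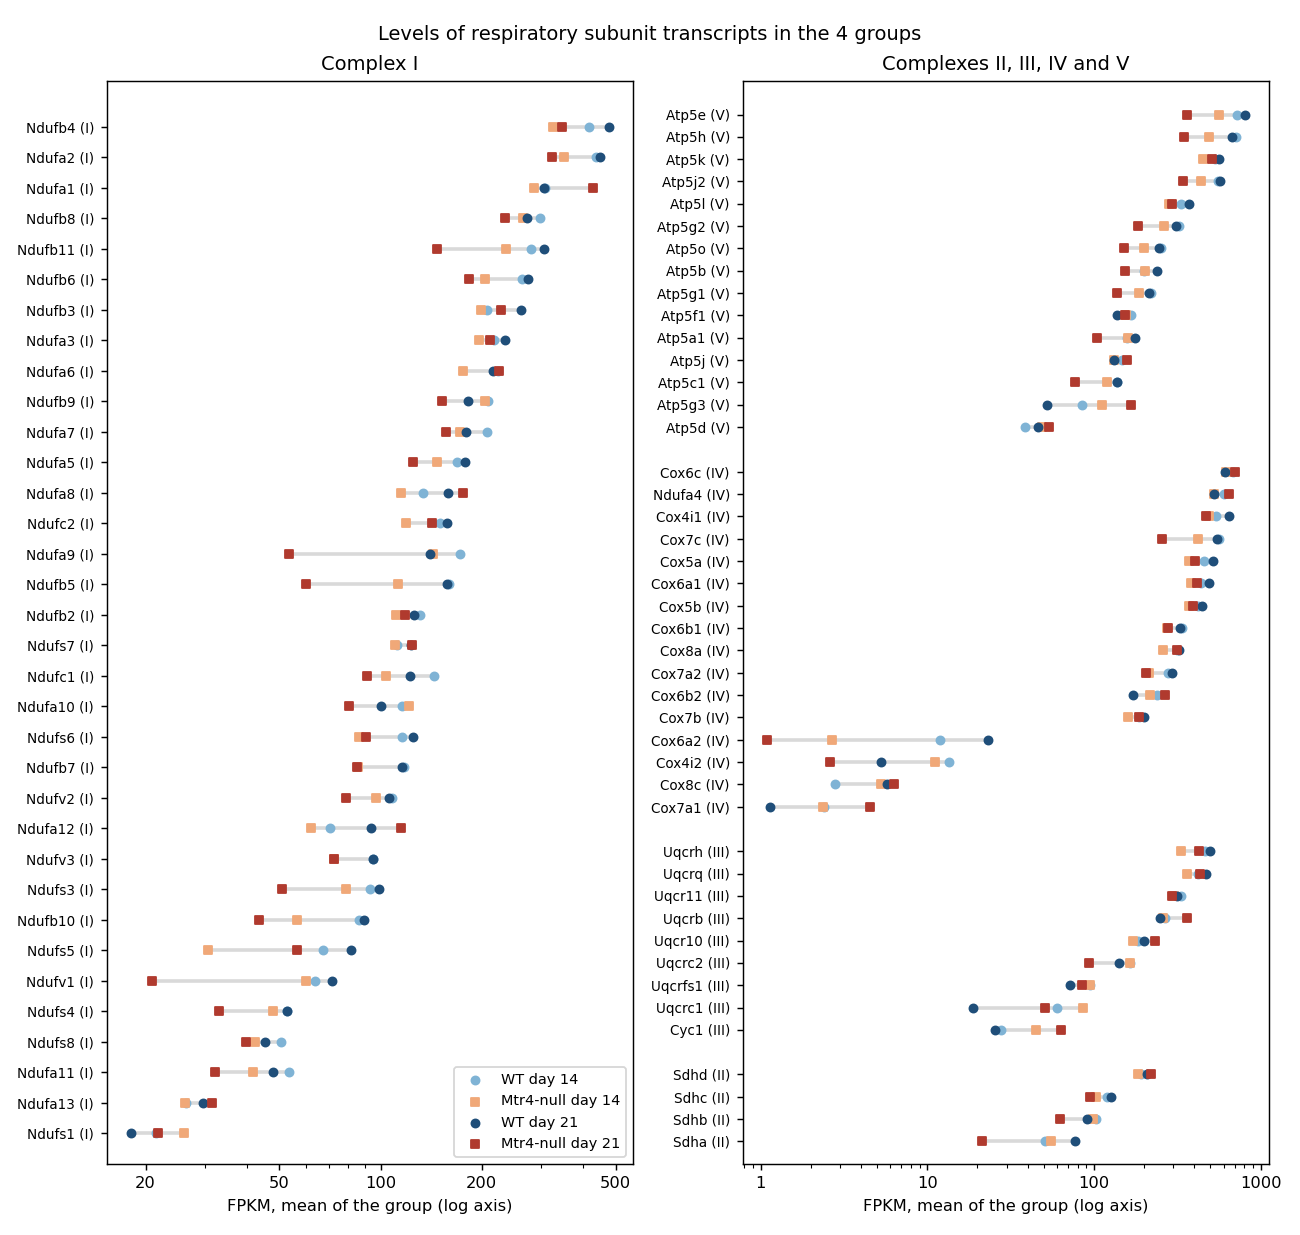
Each row is a subunit gene that passed the minimum, with its complex in brackets. The non-structural genes and 1 gene of complex I are not drawn. Each symbol is the authors' mean FPKM of a group on a log axis (circles WT, squares Mtr4-null, light colours day 14, dark colours day 21). Most rows are short, while Cox6a2 runs from 23.2 FPKM in WT to 1.09 in Mtr4-null on day 21, and Sdha, Ndufv1, Uqcrc1 and Atp5g3 are among the wider ones.

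The age comparison within WT gave a yardstick of size. Differences were taken on log2(FPKM + 1), and a gene was counted as higher or lower at a difference of at least 1, which is 2-fold on that scale (a cut on size alone). Between day 14 and day 21 in WT, 0 of 83 subunit genes were 2-fold higher (2.02% of all genes were) and 2 were 2-fold lower (3.32% of all genes). These were Uqcrc1, a core protein of complex III, from 59.7 to 18.8 FPKM, and Cox4i2, from 13.5 to 5.28 FPKM. Below 0 lay 40 of 83 (48.2%, against 50.4%), and the middle 50% of subunit genes lay between -0.15 and 0.15. The genotype comparisons share these WT columns.

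On day 14 the subunit genes stood slightly and rather uniformly lower in Mtr4-null oocytes. Of the 83, 71 had a difference below 0 (85.5%, against 45.2% of all genes), with a median of -0.21 beside 0.05 for all genes. The middle 50% lay between -0.32 and -0.08, a width of 0.24 that compares with 0.62 over all genes and with 0.30 for the subunit genes between the WT ages. Only 2 genes were 2-fold lower (1.55% of all genes), Cox6a2 and Ndufs5, and 0 were 2-fold higher (8.1% of all genes). Ndufs5, an accessory subunit of complex I, stood at 67.6 FPKM in WT and 30.8 in Mtr4-null, 2.197-fold lower. On day 21 it stood at 81.7 and 56.2, 1.45-fold lower, so the gap was smaller at the later age. The day 14 shift relative to all genes was -0.27 on the deposited scale and -0.11 after quantile normalization.

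On day 21 the subunit genes spread out in both directions while their median stayed near that of all genes. Of the 83, 4 were 2-fold higher (20.2% of all genes) and 11, including the non-structural Cox4nb, were 2-fold lower (25.7% of all genes). The median was -0.31 beside -0.27 for all genes, and 60 of 83 lay below 0 (72.3%, against 58.4%). The middle 50% spanned 0.71, against 1.71 over all genes. Median-of-ratios scaling moved the split to 5 higher and 8 lower: Ndufb10, Ndufb11 and Cox7c dropped under 2-fold and Atp5s passed it. Under that scaling 21.9% of all genes were 2-fold higher and 22.1% lower, and the median over all genes was -0.15.

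**Figure D2:**
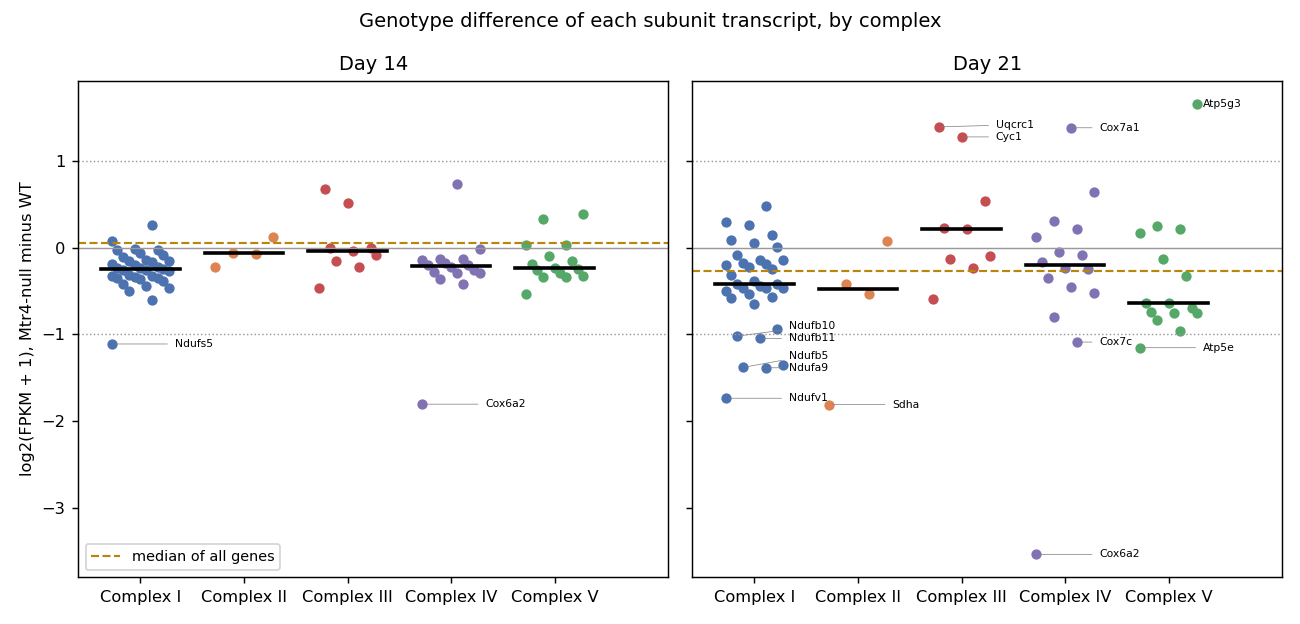
Each point is a subunit gene with its difference of log2(FPKM + 1), Mtr4-null minus WT, on day 14 (left) and day 21 (right); black bars are medians of a complex, the dashed line is the median of all genes, and dotted lines mark 2-fold. Genes at least 2-fold apart are named, except 1 point of complex I. On day 14 the medians lie between -0.25 and -0.04; on day 21 complex III lies at 0.22 and the other complexes between -0.64 and -0.20.

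Complex I takes electrons from NADH through a matrix arm, whose flavin and iron-sulphur clusters sit on nuclear core subunits. On day 14, 33 of its 35 genes lay below 0, with a median of -0.25. On day 21, 28 lay below 0 (80%, against 58.4% of all genes) and the median was -0.42. On that day 6 were 2-fold lower, or 17.1% against 25.7% of all genes, and 0 were 2-fold higher, against 20.2%. The 2-fold lower share of complex I was thus below that of all genes, while the share below 0 was above it. Summed FPKM was 5451 in WT and 4568 in Mtr4-null on day 14 (-16.2%) and 5580 and 4411 on day 21 (-20.95%).

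The core subunits did not differ alike. Ndufv1, the subunit that binds NADH and flavin, stood at 63.8 FPKM in WT and 60.0 in Mtr4-null on day 14, and at 71.8 and 20.9 on day 21, 3.44-fold lower. Ndufs3 stood at 98.7 and 50.9 on day 21, 1.94-fold lower. By contrast Ndufs7, an iron-sulphur subunit, stood at 123 and 124 FPKM on day 21 (ratio 1.01). Ndufs1, the largest core subunit and the least abundant complex I message on average, was slightly higher in Mtr4-null at both ages: 21.5 in WT and 25.9 in null on day 14, and 18.1 and 21.7 on day 21. Ndufv2 (106 and 79.0) and Ndufs8 (45.2 and 39.9) lay between these on day 21. The Ndufv1 level over that of Ndufv2 was 0.59, 0.62 and 0.68 in WT day 14, null day 14 and WT day 21, and 0.26 in null day 21.

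The 28 accessory subunits surround the core and support its assembly and stability. Of these, 4 were 2-fold lower on day 21, beside 25.7% of all genes. Ndufa9 stood at 172 FPKM in WT and 143 in Mtr4-null on day 14, and at 141 and 53.3 on day 21, 2.64-fold lower. Ndufb5, of the membrane arm, stood at 160 and 113 on day 14, and at 158 and 60.0 on day 21, 2.63-fold lower. Both genes were therefore alike in size of the gap on day 21, and both stood lower already on day 14. Ndufb11, encoded on the X chromosome, stood at 281 and 235 on day 14, and at 305 and 147 on day 21 (2.07-fold lower). Ndufb10 stood at 86.3 and 56.4, and at 89.5 and 43.6 (2.05-fold lower). The most abundant complex I messages showed smaller gaps. Ndufb4 stood at 418 and 326 FPKM on day 14 and at 478 and 346 on day 21, and Ndufa2 at 438 and 350.0, and at 448 and 324. Ndufa1, a small X-linked subunit needed for membrane arm assembly, had the highest difference of the complex on day 21 with 307 in WT and 427 in null, after 309 and 287 on day 14.

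Complex II, succinate dehydrogenase, is also an enzyme of the TCA cycle and is encoded wholly in the nucleus. Its 4 messages stood close together between genotypes on day 14, and on day 21 Sdhd still did while the other subunits stood lower in Mtr4-null. Sdha, the flavoprotein that oxidises succinate, stood at 51.0 FPKM in WT and 55.6 in Mtr4-null on day 14, and at 76.9 and 21.2 on day 21, 3.62-fold lower. Sdhb, the iron-sulphur subunit, stood at 103 and 98.2, and at 91.4 and 62.6, 1.46-fold lower on day 21. The membrane anchors had smaller gaps: Sdhc stood at 120 and 102, and at 127 and 94.95, and Sdhd at 193 and 185, and at 208 and 219. The order on day 21 thus ran from the catalytic subunit to the anchors. The Sdha level was 0.37 of the Sdhd level in WT and 0.097 in Mtr4-null on day 21. The spread of the 4 levels (SD of log2 level between the genes) was 0.63 in WT and 1.37 in Mtr4-null on day 21.

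Complex III, the cytochrome bc1 complex, was the only complex with a median above 0 on day 21. Its median difference was 0.22, above that of all genes by 0.49, and this median was positive under each of the 5 alternative settings tried. Of its 9 genes, 2 were 2-fold higher, a share of 22.2% near the 20.2% of all genes, and 0 were 2-fold lower, against 25.7%. Summed FPKM was 2017 in WT and 1819 in Mtr4-null on day 14 (-9.81%), and 1995 and 2040 on day 21 (2.26%).

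The 2 genes higher on day 21 were the least abundant of complex III in WT oocytes of that age. Cyc1, the haem-carrying cytochrome c1, stood at 27.8 FPKM in WT and 45.1 in Mtr4-null on day 14, and at 25.6 and 63.3 on day 21, 2.48-fold higher. Uqcrc1 stood at 59.7 and 85.5 on day 14, and at 18.8 and 50.9 on day 21, 2.71-fold higher. Uqcrc1 was at the same time lower on day 21 than on day 14 in both genotypes. The 2 genes also had the highest differences of the complex on day 14. Uqcrc2, the other core protein, differed in the other direction, with 165 and 164 on day 14 and 141 and 93.6 on day 21, 1.51-fold lower. Uqcrfs1, the Rieske iron-sulphur protein, stood at 94.92 and 94.97 on day 14, and at 71.8 and 84.5 on day 21. The Uqcrc1 level over that of Uqcrc2 was 0.36, 0.52, 0.13 and 0.54 in WT day 14, null day 14, WT day 21 and null day 21. The small subunits were the abundant messages: Uqcrh, the hinge protein, stood at 461 and 334, and at 500.3 and 426, and Uqcrq at 422 and 362, and at 474 and 433. Since the low genes were higher and the high ones near level, the SD of log2 levels in complex III was 1.71 in WT and 1.24 in Mtr4-null on day 21.

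Complex IV, cytochrome c oxidase, has 3 catalytic subunits encoded by mitochondrial DNA, none of which is in the table, and nuclear subunits that in part come in tissue forms. All 11 ubiquitous nuclear subunits lay below 0 on day 14, between -0.42 (Cox7c) and -0.13 (Cox6c). On day 21, 9 of the 11 lay below 0 and 1 was 2-fold lower. Cox7c stood at 562 FPKM in WT and 419.9 in Mtr4-null on day 14, and at 548 and 257 on day 21, 2.13-fold lower. Cox6c, the most abundant, stood at 682 and 624, and at 608 and 704, and Ndufa4 at 602 and 526, and at 522 and 648. These 2 were the ubiquitous subunits above 0 on day 21. The whole complex had 1 higher and 2 lower (1 and 1 after median-of-ratios scaling), or 6.25% and 12.5% of its 16 passing genes, both below the shares of all genes. Summed FPKM of complex IV was 5088 and 4332 on day 14 (-14.9%) and 5127 and 4560 on day 21 (-11.1%).

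The tissue forms of complex IV diverged. Cox6a2, the form of heart and skeletal muscle, stood at 11.9 FPKM in WT and 2.69 in Mtr4-null on day 14, 4.42-fold lower, and at 23.2 and 1.09 on day 21, 21.3-fold lower on the FPKM scale and -3.53 on log2(FPKM + 1). Its share of summed Cox6a1 and Cox6a2 was 4.50% in WT and 0.26% in null on day 21. Cox6a1, the ubiquitous form, stood at 438 and 381, and at 491 and 417. Cox6a2 had the lowest difference of the 83 genes in both genotype comparisons. Cox7a1, another muscle form, stood at 2.39 and 2.36 on day 14, and at 1.14 and 4.57 on day 21, where it was 4.01-fold higher from a level close to the minimum. Cox4i2, the form known from lung, stood at 13.5 and 11.1, and at 5.28 and 2.60. Cox8c, known from testis, stood at 2.78 and 5.30, and at 5.76 and 6.36.

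Cox6b2 was the only tissue form of complex IV present at more than 100 FPKM. It is known as the testis form, yet stood at 239 FPKM in WT and 216 in Mtr4-null on day 14, and at 172 and 269 on day 21, 1.56-fold higher. Cox6b1, its ubiquitous partner, stood at 338 and 275, and at 330 and 278. Cox6b2 thus made up 41.5%, 44.0%, 34.3% and 49.2% of the summed Cox6b level in WT day 14, null day 14, WT day 21 and null day 21.

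Complex V, ATP synthase, had the lowest median on day 21, -0.64, and the largest gap in summed FPKM of the 5 complexes. The sum was 4581 in WT and 3810 in Mtr4-null on day 14 (-16.8%) and 4682 and 3194 on day 21 (-31.8%). On day 14 no gene was 2-fold apart, and on day 21 there were 1 higher and 1 lower (2 lower after quantile normalization), each 6.67% of its genes and below the shares of all genes.

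Within F1, the soluble part that makes ATP, 4 of 5 genes lay below 0 on day 21. The catalytic beta subunit Atp5b stood at 198 FPKM in WT and 202 in Mtr4-null on day 14, and at 240.5 and 154 on day 21, 1.56-fold lower. Its partner, the alpha subunit Atp5a1, stood at 158 and 161, and at 176 and 104, 1.70-fold lower. Levels of alpha over beta were close in all groups, at 0.80, 0.80, 0.73 and 0.67. The gamma subunit Atp5c1, the rotating shaft, stood at 137 and 120, and at 138 and 76.8, 1.80-fold lower. The epsilon subunit Atp5e, the most abundant subunit message in WT, stood at 718 and 566, and at 806 and 362, 2.23-fold lower. Only the delta subunit Atp5d was higher in Mtr4-null at both ages, with 38.6 and 48.9, and 45.9 and 53.6. Among the other parts, the stalk subunit Atp5h was next to the 2-fold line, at 714 and 491, and at 677 and 346, 1.96-fold lower.

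The 3 genes of the c-ring encode the same mature protein, which carries protons through the membrane, and differ in their targeting sequences. Atp5g1 stood at 220.2 FPKM in WT and 186 in Mtr4-null on day 14, and at 215 and 138 on day 21, 1.56-fold lower. Atp5g2 stood at 323 and 263, and at 311 and 184, 1.70-fold lower. Atp5g3 differed in the other direction, with 85.2 and 112 on day 14, and 52.0 and 166 on day 21, 3.20-fold higher, the highest ratio in complex V. Its share of the summed c-ring level was 13.6%, 19.97%, 8.98% and 34.1% in WT day 14, null day 14, WT day 21 and null day 21. The sum of the 3 was 628, 561, 579 and 488 FPKM, so the sum varied less than the shares.

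**Figure D3:**
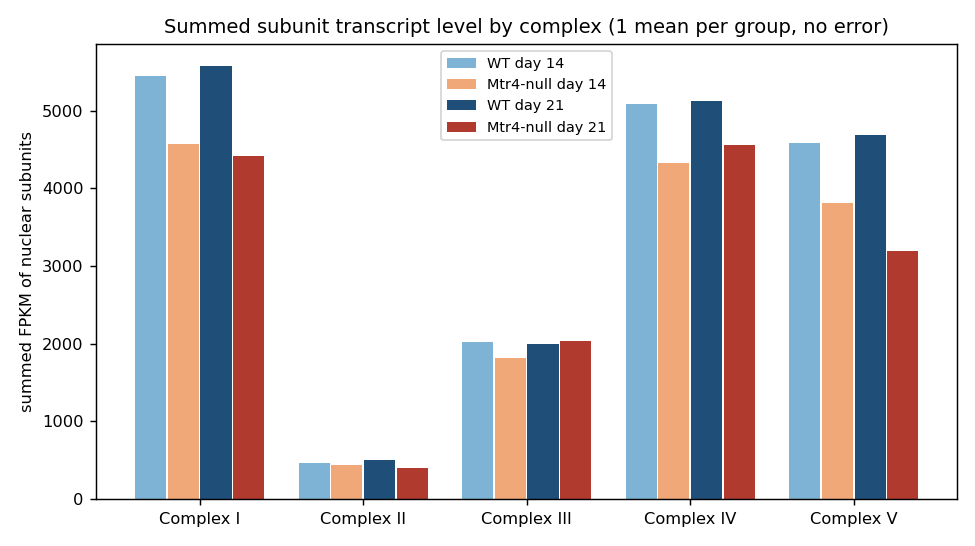
Bars show the summed FPKM of the nuclear subunit genes of each complex in the 4 groups, from 1 mean per group and so without error bars. Mtr4-null bars are lower than WT at both ages for complexes I, II, IV and V, with complex V at 4682 and 3194 on day 21; complex III stands at 1995 and 2040 on day 21.

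The 4 genes that match the symbols without encoding a structural subunit varied as widely. Cox4nb, now Emc8 and a subunit of a membrane protein insertase of the endoplasmic reticulum, stood at 24.8 FPKM in WT and 22.7 in Mtr4-null on day 14, and at 38.8 and 5.91 on day 21, 6.57-fold lower. Cox7a2l, a factor of respiratory supercomplexes, stood at 199 and 158, and at 192 and 122. Atp5s stood at 9.71 and 8.24, and at 5.36 and 10.8, and Atp5sl at 17.0 and 19.6, and at 14.8 and 13.1.

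Between day 14 and day 21 in Mtr4-null oocytes, 0 of the 83 genes were 2-fold higher (9.08% of all genes) and 5 were 2-fold lower (18.6% of all genes). The 5 were Cox4nb, Cox4i2, Ndufv1, Ndufa9 and Sdha. Their median difference was -0.08, beside -0.30 over all genes, and 47 lay below 0 (56.6%, against 64.3%). Scaling by median-of-ratios or by quantiles put 2 genes at 2-fold higher, beside 13% and 12.5% of all genes.

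Ribosomal protein genes, also short and abundant, were described in the same way. On day 14 the median was -0.14 for the 76 mitochondrial and -0.25 for the 84 cytosolic ribosomal protein genes that passed the minimum, beside -0.21 for the respiratory subunits. Below 0 lay 67.1% of the mitochondrial and 84.5% of the cytosolic list, beside 85.5% of the respiratory subunits and 45.2% of all genes. The 2-fold counts were 4 higher (5.26%) and 0 lower, and 1 higher and 1 lower (1.19% each). Of all genes 8.1% were higher and 1.55% lower. On day 21 the mitochondrial ribosomal genes had 14 higher (18.4%, near the 20.2% of all genes) and 8 lower (10.5%, against 25.7%), with a median of -0.26. The cytosolic ones had 6 higher (7.14%) and 2 lower (2.38%), with a median of 0.07. The respiratory subunits, with the non-structural genes counted in, stood at 4.82% higher and 13.3% lower. All 3 lists thus had smaller shares in both directions than all genes.

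Assembly factors, which insert cofactors and put the complexes together, are listed here apart from the subunits. Of 49 listed, 48 were in the table (some under older symbols) and 47 passed the minimum. On day 14, 1 was higher (2.13%, against 8.1% of all genes) and 0 were lower (against 1.55%). On day 21, 9 were higher and 6 lower. After median-of-ratios scaling 10 were higher and 3 lower, beside 21.9% and 22.1% of all genes. The higher share on day 21, 19.1%, was near the 20.2% of all genes, and the lower share, 12.8%, was below 25.7%. The median was 0.15, beside -0.27 for all genes, and 42.6% lay below 0, against 58.4%. Ndufaf1, which acts early in complex I assembly, stood at 3.40 FPKM in WT and 6.42 in Mtr4-null on day 14, and at 1.17 and 23.4 on day 21. Atpaf2, a chaperone of F1 alpha, stood at 8.60 and 19.9 on day 14, and at 9.24 and 107 on day 21. Uqcc3, listed as AI462493, stood at 0.79 and 2.32, and at 0.38 and 12.2. Its mean of 3.93 FPKM passed the minimum only through the Mtr4-null groups, so its place among the 9 higher is no support. Foxred1 stood at 1.45 and 3.60, and at 0.59 and 7.82. These 4 stood below 10 FPKM in WT at both ages, as did Cox11, Cox15 and Fam36a among the 9 higher factors. Only Tmem70 and Ccdc56 of the 9, named after their values were seen, stood above that level. Tmem70, a factor of ATP synthase, stood at 204 and 245, and at 143 and 362. Ccdc56 stood at 41.4 and 60.0, and at 23.5 and 81.5. Cox17, the copper chaperone for complex IV and the most abundant factor of the list, stood at 429 and 237 on day 14, and at 499 and 230 on day 21, and was among the 6 lower.

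Enzymes of the TCA cycle supply the NADH and succinate that enter the chain. In the list of pyruvate dehydrogenase and TCA cycle genes all 18 passed the minimum. On day 14, 1 was higher (5.56%, against 8.1% of all genes) and 0 were lower (against 1.55%). On day 21, 2 were higher and 6 lower (median -0.45, beside -0.27 for all genes). On day 21 these are 11.1% and 33.3% of the list, against 20.2% and 25.7% of all genes. Of the 2 higher, Idh2 stood at 1.15 in WT and 0.61 in Mtr4-null on day 14, and at 0.35 and 2.89 on day 21. Its mean of 1.25 FPKM passed the minimum only through Mtr4-null day 21, so its count is no support. Ogdh, the E1 subunit of the oxoglutarate dehydrogenase complex, stood at 21.02 FPKM in WT and 157 in Mtr4-null on day 14, and at 19.7 and 1018 on day 21. The E2 subunit of the same complex, Dlst, stood at 63.9 and 69.0, and at 65.6 and 23.8. Dlat, the E2 subunit of pyruvate dehydrogenase, stood at 25.5 and 18.5, and at 26.0 and 7.03. Fh1, fumarase, which acts after succinate dehydrogenase, stood at 86.4 and 66.5, and at 81.3 and 27.0. The E1 and E2 messages of the oxoglutarate complex therefore lay in opposite directions on day 21.

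Of the 7 carriers and other entry points, 0 were 2-fold apart on day 14, when 8.1% of all genes were higher and 1.55% lower. On day 21 (median -0.90) 1 was higher (14.3%, against 20.2% of all genes) and 3 lower (42.9%, against 25.7%). Among the 3 lower, Gpd2 stood at 1.68 in WT and 0.90 in Mtr4-null on day 14, and at 1.37 and 0.16 on day 21. Its mean of 1.03 FPKM passed the minimum only through the WT groups, where it was high, so its count is no support. Cycs, somatic cytochrome c, stood at 58.9 and 64.4, and at 76.9 and 103. Cyct, the testis form, stood at 14.3 and 11.8, and at 16.2 and 6.07. Etfa, a subunit of the electron transfer flavoprotein, stood at 105 and 86.4, and at 119 and 53.5, and its oxidoreductase Etfdh stood at 4.33 and 6.68, and at 2.02 and 8.09. Etfa and Etfdh act in succession and lay in opposite directions. Of the 13 coenzyme Q synthesis genes, 0 were 2-fold apart on day 14, and 0 were higher and 1 lower on day 21 (1 and 1 after median-of-ratios scaling). The lower share, 7.69%, was below the 25.7% of all genes, and the 0 higher stand against 20.2%. The lower gene was Coq6, at 14.6 in WT and 5.39 in Mtr4-null.

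Regulators of mitochondrial gene expression held 12 genes above the minimum of 14 listed. On day 14, 0 were 2-fold apart, beside 8.1% of all genes higher and 1.55% lower. On day 21, 3 were higher and 0 lower (3 and 1 after quantile normalization). Their higher share, 25%, was near the 20.2% of all genes, and the 0 lower stand against 25.7%. Tfam packages mitochondrial DNA and activates its transcription. It stood at 26.4 FPKM in WT and 33.7 in Mtr4-null on day 14, and at 12.01 and 36.8 on day 21. Gabpa, the DNA-binding subunit of NRF2, stood at 3.91 and 7.40, and at 0.98 and 9.54. Gabpb2 stood at 0.61 and 1.05, and at 0.40 and 2.30. Its mean of 1.09 FPKM passed the minimum only through Mtr4-null day 21, so its place among the 3 higher is no support. Of 5 subunits outside the symbol rule, 1 was higher at each age, Ndufa4l2, at 1.65 and 4.85, and at 1.59 and 5.22. That 1 gene is 20% of the list, against 8.1% of all genes on day 14 and 20.2% on day 21. The acyl carrier subunit Ndufab1 stood at 273 and 237, and at 293 and 339. No symbol beginning with mt- is listed, so mitochondrially encoded subunits were not analysed here.

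Respiratory subunits are short proteins, and differences over all genes varied with length. The median coding length was 429 bases and 4 exons for the 83 subunit genes, against 1335 bases and 9 exons for 10818 other genes with a matched model. Among other genes the day 21 median went from 0.02 at up to 300 bases to -0.49 between 1500 and 3000 bases and -0.70 above that. The subunit genes stood at -0.13 (22 genes), -0.29 (24), -0.44 (14), -0.42 (11), -0.49 (8) and -0.70 (4) in the classes up to 300, 450, 600, 900, 1500 and 3000 bases. Other genes of those classes stood at 0.02, 0.02, -0.07, -0.15, -0.28 and -0.49. In each of these 6 classes the subunit genes thus had the lower median on day 21. The 2-fold counts did not follow the medians. In the same classes 3, 0, 3, 1, 3 and 1 subunit genes were 2-fold lower, or 13.6%, 0%, 21.4%, 9.09%, 37.5% and 25%, against 15.8%, 16.8%, 19.2%, 19.9%, 26.0% and 31.1% of other genes. The subunits had the smaller share in 4 of the 6 classes. In the classes up to 300, 450 and 1500 bases 1, 1 and 2 subunit genes were 2-fold higher (4.55%, 4.17% and 25%, against 17.2%, 22.4% and 20.9% of other genes), and in the others 0 were. Across the 83 genes, which share the same 2 group means, Spearman's rho between coding length and the difference was 0.32 on day 14 and -0.24 on day 21 (Pearson's r 0.31 and -0.15), given as a description.

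**Figure D4:**
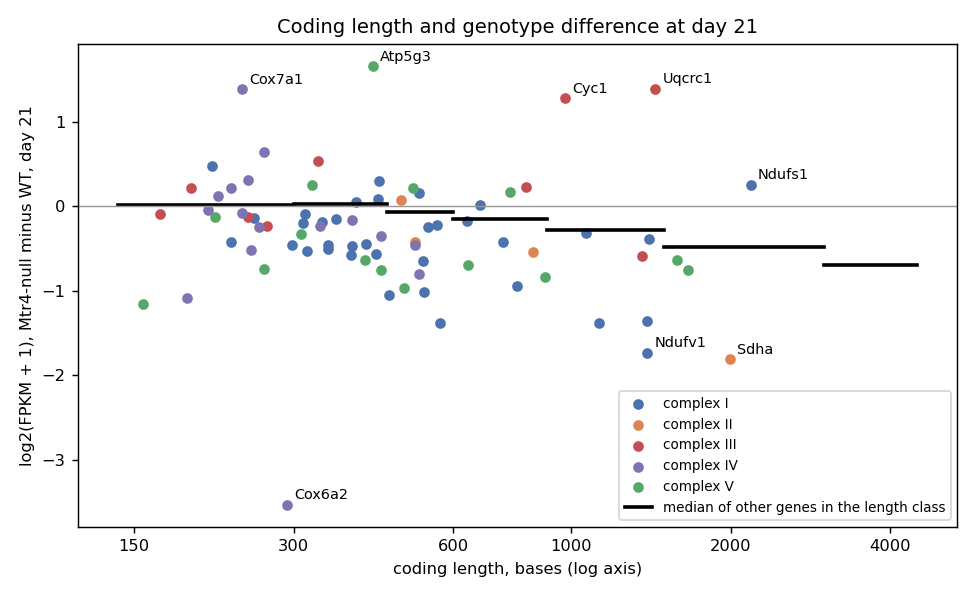
Points are the subunit genes of the 5 complexes, coloured by complex, with coding length in bases on a log axis and the day 21 difference of log2(FPKM + 1), Mtr4-null minus WT; black bars are medians of other genes in each length class, from 0.02 at up to 300 bases to -0.70 above 3000. Sdha and Ndufv1 lie below the bars of their class, and Uqcrc1, Cyc1, Cox7a1 and Atp5g3 lie above theirs.

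Level was the other property in which the subunits stood apart from most genes. At a mean of 1 to 10 FPKM, 5 subunit genes had a day 21 median of 0.12 and 5610 other genes one of -0.03. At 10 to 50 FPKM the medians were -0.17 for 9 subunit genes and -0.43 for 3995 other genes. At 50 to 100 FPKM they were -0.53 for 12 subunit genes and -0.52 for 1041 other genes. In the class with the most subunit genes, 100 to 200 FPKM, they were -0.42 for 25 subunit genes and -0.43 for 610 other genes. At a mean of 200 to 400 FPKM, 19 subunit genes had a day 21 median of -0.22 and 334 other genes one of -0.40. At 400 FPKM or more, 13 subunit genes had a median of -0.24 and 240 other genes one of -0.53. The subunit medians were thus above those of other genes in the 2 lowest and the 2 highest classes and close to them between 50 and 200 FPKM. On day 14 the subunit medians from the lowest to the highest class were -0.21, -0.01, -0.18, -0.22, -0.26 and -0.25, below the 0.15, 0.04, -0.04, -0.10, -0.15 and -0.11 of other genes in each class. On day 14 all 19 and all 13 subunit genes of the top 2 classes lay below 0, as did 66.8% and 65.4% of the other genes there.

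Promoters of respiratory genes are known for sites of nuclear respiratory factor 1 (NRF1), a regulator of nuclear genes for mitochondria. The promoter table from RefSeq (build GRCm38.p6, 250 bases before to 50 after each start) held 75 promoters of 69 subunit genes. The 9-letter NRF1 core, GCGCATGCG or CGCATGCGC on the other strand, was in 8 of the 75 (10.7%), in 3.80% of promoters of genes at or above the FPKM minimum and in 1.75% of all 32851 promoters. The ETS core bound by GABPA, CCGGAAG or CTTCCGG, was in 21.3%, 17.9% and 8.86%. In 5 promoters the NRF1 core was part of a 10-letter palindrome that matches on both strands. In 4 of them it lay before the start, and these are shown. In Uqcrc1 it began 30 bases after the start, outside the stretch printed for the others. Each run is the 250 bases before the start, 5′ to 3′ on the gene's strand, with NRF1 and ETS matches in capitals.
Atp5g2 (chr15:102671048-102671297, minus strand): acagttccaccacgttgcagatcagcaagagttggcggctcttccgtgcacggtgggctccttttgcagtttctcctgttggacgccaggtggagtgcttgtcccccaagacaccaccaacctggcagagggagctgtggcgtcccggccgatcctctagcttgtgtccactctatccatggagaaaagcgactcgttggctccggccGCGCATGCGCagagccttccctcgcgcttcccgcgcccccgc
Atp5k (chr5:108434400-108434649, minus strand): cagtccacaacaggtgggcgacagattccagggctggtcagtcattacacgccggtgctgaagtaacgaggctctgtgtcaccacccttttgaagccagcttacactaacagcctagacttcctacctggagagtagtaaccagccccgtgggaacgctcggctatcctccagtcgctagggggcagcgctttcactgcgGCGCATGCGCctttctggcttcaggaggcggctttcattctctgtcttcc
Cox6a1 (chr5:115348959-115349208, minus strand): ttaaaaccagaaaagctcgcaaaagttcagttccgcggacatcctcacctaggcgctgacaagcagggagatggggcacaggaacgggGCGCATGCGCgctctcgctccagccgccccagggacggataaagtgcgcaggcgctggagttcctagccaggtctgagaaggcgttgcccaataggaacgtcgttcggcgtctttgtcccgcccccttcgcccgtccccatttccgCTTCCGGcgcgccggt
Ndufa11 (chr17:56717512-56717761, plus strand): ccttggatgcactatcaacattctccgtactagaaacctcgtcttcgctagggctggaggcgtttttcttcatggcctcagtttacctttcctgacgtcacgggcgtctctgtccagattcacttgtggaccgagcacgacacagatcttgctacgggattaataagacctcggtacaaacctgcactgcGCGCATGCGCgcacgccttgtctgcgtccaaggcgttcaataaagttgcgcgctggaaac
The palindromes began 42, 50, 162 and 60 bases before the starts of Atp5g2, Atp5k, Cox6a1 and Ndufa11. On day 21 the WT levels of these genes were 311, 561, 491 and 48.0 FPKM, and their Mtr4-null levels were 184, 512, 417 and 32.1 FPKM. The 8 genes with the NRF1 core had a median difference of -0.23 on day 14 and -0.19 on day 21, and the 59 passing genes with a promoter but without it had -0.22 and -0.31. Of the 8, 1 was 2-fold higher on day 21, Uqcrc1, and 0 were 2-fold lower. Of the 59 without the core, 2 were higher and 8 lower, and over all genes the shares were 20.2% and 25.7%. A match describes letters in the window and not binding.

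In the GENCODE annotation the 85 genes lie on 19 chromosomes and none holds more than 9 of them. Of the 85, 25 overlap another protein-coding gene, 22 of them on the opposite strand, so reads there cannot be told apart without strand. Among the genes 2-fold apart on day 21 these included Ndufb5 with Mrpl47, Ndufb11 with Rbm10, Cox6a2 with Itgad, and Cox4nb, which lies opposite Cox4i1. Itgad was at most 0.037 FPKM in any group. For 11 genes another annotated transcript, a pseudogene in 10 cases, matches at 95% identity over at least 50% of the length, and counting could split reads there. These are Atp5c1, Atp5g2, Atp5h, Atp5k, Atp5l, Atp5o, Cox7c, Ndufb11, Ndufs3, Ndufs6 and Uqcrb, whose values are uncertain to that extent.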

How the data were processed

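Poly(A) RNA of oocytes was measured in 4 groups. The tools were TopHat2 2.1.1 and Cufflinks 2.2.1 on build mm9, per the submitters' processing notes, which state no order. The authors deposited FPKM values, 1 mean per group for 23235 symbols, which are scaled to transcript length and library size. Annotation came from RefSeq and GENCODE vM21 (build GRCm38), matched by symbol (81 genes) or synonym (4), and no mm9 coordinate is given.

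Differences of log2(FPKM + 1) were computed for 11913 genes with a mean of at least 1 FPKM over the 4 groups, in Python 3.11.15 with pandas 2.3.3. A gene was called at 2-fold. With no values per library there is no test, and p-values cannot be given. The counting was tested on simulated data. The members and lists were chosen with earlier results of these data known. Genes named in the text were those 2-fold apart in a genotype comparison, the 2 most abundant and the 2 most extreme at day 21 of each complex, catalytic and core subunits, isoforms, genes below the minimum, and up to 4 of each pathway list. A few further genes were named after their values were seen, among them Dlst, Atp5h, Cycs, Ndufab1 and the non-structural members. 1 complex I gene is counted throughout and not reported by name here. Coding length replaced the planned protein length. The BLAST 2.17.0 search for copies, the isoform shares and the choice of printed promoters were added after seeing the data. Alternatives were another pseudocount (0.1), no minimum, a minimum of 5 FPKM and 2 scalings.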

Additional observations from a re-analysis of the deposited data

How the results depend on the processing

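No paired analysis was possible because the deposited table gives group means without values per library, and replicates could not be left out for the same reason. Median shifts are given relative to all genes. Settings were compared for all 42 summary values. Those by complex under the 5 processing settings were chosen after seeing the data. Counting Ndufa4 with complex I or leaving out the 4 non-structural genes moved no summary value by more than the tolerance (1.5 times for a count, 0.1 for a median).

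Quantile normalization moved the day 14 shift of the 83 genes from -0.27 to -0.11 and those of complexes I, II, III, IV and V to -0.15, 0.037, 0.071, -0.090 and -0.072, so complexes II and III turned sign. It moved the day 21 shifts of complexes I and II to -0.0034 and -0.073, the complex V count lower from 1 to 2, the Mtr4-null age shift from 0.23 to 0.022 and its count higher from 0 to 2. Median-of-ratios scaling gave 2 higher in the Mtr4-null age comparison and 1 lower, in place of 2, in complex IV on day 21. With no minimum FPKM, where genes near 0 put the median of all genes at 0, the day 21 shift was -0.25 for the 83 genes (main -0.04) and -0.42, -0.48, 0.22, -0.13 and -0.64 for complexes I to V, and the Mtr4-null age shift turned to -0.073. With a minimum of 5 FPKM, where the median of all genes was lower, the day 21 shift was 0.090 for the 83 genes and -0.0053, -0.067, 0.63, 0.18 and -0.23 for complexes I to V, and complex IV had 0 higher because Cox7a1 fell under the minimum. A pseudocount of 0.1 gave 1 gene 2-fold higher between WT ages (main 0). Of 17 genotype differences past 2-fold, 14 stayed past it under every setting that kept them, and none turned sign.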

Other observations

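A few neighbours that overlap subunit genes on the opposite strand were picked by hand after their values were seen. In all, 22 of the 85 subunit genes overlap a protein-coding gene there, and most of those neighbours were not looked at. Mrpl36, a mitochondrial ribosomal protein gene that overlaps Ndufs6, stood at 37.7 FPKM in WT and 76.5 in Mtr4-null on day 14, and at 26.3 and 124 on day 21, while Ndufs6 stood at 116 and 86.0, and at 125 and 90.3. Wdr77, which overlaps Atp5f1, stood at 0.65 and 0.96, and at 0.25 and 9.71, while Atp5f1 stood at 167 and 157, and at 137 and 155. Gabpa overlaps Atp5j, which stood at 147 and 132, and at 132 and 157. In these 3 pairs the neighbour was higher in Mtr4-null on day 21. Of the subunit genes, Ndufs6 was lower, and Atp5f1 and Atp5j were higher by less than their neighbours. Mrpl47, opposite Ndufb5, stood at 89.9 and 72.3, and at 102 and 60.1, lower as Ndufb5 was. Without strand, how far reads of either gene enter the value of the other was not tested.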
